A study of Mus musculus with 29 samples.

Results

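A set of 10 astrocyte genes was followed through the 3 RNA-seq experiments on miR-99b-5p inhibition in mice. They are the cytoskeletal gene Gfap, the water channel gene Aqp4, the metabolic enzymes Aldh1l1 and Aldoc, the glutamate transporters Slc1a2 and Slc1a3, the gap junction gene Gja1, the calcium-binding protein gene S100b, the transcription factor Sox9 and the secreted serine protease inhibitor Serpina3n. They were chosen by symbol, and all 10 matched 1 Ensembl identifier each among the 48709 in every count table. In the first experiment, 3-month-old C57BL/6J mice received lipid nanoparticles carrying anti-miR-99b, a locked nucleic acid inhibitor, or sc-control, a scrambled sequence, in the prefrontal cortex (PFC), and the tissue of 3 mice per group was taken 5 days later. In the second, primary microglia of CD1 pups at postnatal day 1 received either agent for 2 days, with 4 libraries per group. These cells had been shaken off mixed glia cultures, in which astrocytes grow too. In the co-culture experiment, microglia of pups at postnatal day 1 received anti-miR-99b (7 libraries) or sc-control (8 libraries) for 2 days. They were then placed on cortical neurons from CD1 embryos at day 17.5, and RNA of the whole co-culture was taken 2 days later. The agents were given to the microglia before this transfer, and carry-over into the neuronal dish was not measured. No group carried a transgene or deletion per the labels. Nothing says that the culture libraries came from separate litters, so p-values there measure the spread between libraries, which may be technical.

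Astrocytes take up glutamate released at synapses through the transporters GLT-1 (Slc1a2) and GLAST (Slc1a3), share ions and small molecules through gap junctions built from connexin 43 (Gja1), and move water at their vascular endfeet through aquaporin-4 (Aqp4). Aldh1l1, Aldoc and Sox9 serve as markers of the cell type, and S100b is shared with the oligodendrocyte lineage. When the brain is injured or inflamed, astrocytes become reactive, and a raised intermediate filament protein (Gfap) and the inhibitor Serpina3n are classic signs of that state. Microglial cytokines and complement proteins are known inducers of it.

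A microRNA lowers messages that pair with its seed, bases 2 to 8 from the 5′ end, so the sequence of the inhibited microRNA is given with the 2 other mouse microRNAs printed here that carry the same seed. RefSeq mature sequences (GRCm38.p6) are shown, with the seed in capitals.
miR-99b-5p: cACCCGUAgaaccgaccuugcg
miR-99a-5p: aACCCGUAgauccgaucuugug
miR-100-5p: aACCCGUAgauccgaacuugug
The 3 lie at chr17:17830194-17830215, chr16:77598940-77598961 and chr9:41531437-41531458, all on the plus strand. The letters TACGGGT, which pair with all 7 seed bases, were looked for on the sense strand of the GENCODE M21 3′ untranslated regions. They occurred in 0 of the 10 genes and in 1.19% of 21016 genes. The shorter ACGGGT, which pairs with bases 2 to 7 and is contained in the longer motif, occurred in 1 of the 10, Slc1a2, and in 5.83% of all genes. That match begins at base 5794 of a 3′ untranslated region of 9250 bases, within chr2:102787317-102787344 on the plus strand (GRCm38), and is shown because it is the one match found among the 10 genes.
Slc1a2 match in capitals: tgacccagacaACGGGTggcagaatatc

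In the GENCODE M21 annotation (GRCm38, the build of the files), Gfap lies at chr11:102887336-102900912 on the minus strand, Aqp4 at chr18:15389496-15410982 (minus), Aldh1l1 at chr6:90486427-90600203 (plus), Slc1a2 at chr2:102658659-102790784 (plus) and Slc1a3 at chr15:8634124-8710764 (minus). Aldoc lies at chr11:78322968-78327781, Gja1 at chr10:56377330-56402513, S100b at chr10:76253853-76261159, Sox9 at chr11:112782224-112787760 and Serpina3n at chr12:104406729-104414329, all on the plus strand.

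Libraries held between 24482309 and 36475236 counts in the PFC, 21324156 and 35013400 in the microglia and 23269839 and 37901110 in the co-cultures. The mature microRNA was not measured by these polyA libraries: the Mir99b locus had at most 2 counts in any library, so the inhibition cannot be checked here. Summed markers of microglia (15 genes) reached 21450 to 23260 CPM (counts scaled to a common library total) in the microglia cultures, 698 to 1034 in the PFC and 185 to 264 in the co-cultures. Summed neuronal markers (15 genes) reached 197 to 219 CPM in the microglia cultures against 10510 to 11030 in the co-cultures. In the microglia cultures, summed oligodendrocyte lineage markers (12 genes) stood at 407 to 469 CPM. Levels are CPM on library sizes adjusted by TMM, edgeR's trimmed mean scaling.

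Every one of the 10 astrocyte genes was detected in every library of every experiment, and their levels in the 3 kinds of sample were far apart. In the PFC of sc-control mice, levels per kilobase of exon ran from Aldoc at 209.5 ± 16.2 CPM per kb and Slc1a2 at 181 ± 8.05 (SD, n = 3) down to Sox9 at 6.52 ± 0.129. Between these lay Gfap at 70.7 ± 22.7, S100b at 69.8 ± 4.46 and Slc1a3 at 65.0 ± 4.31, whose ranges overlapped from one to the next. Serpina3n, Aqp4 and Gja1 followed at 22.97 ± 9.24, 17.7 ± 3.49 and 17.1 ± 2.33 CPM per kb, again without separation between neighbours, and Aldh1l1 at 14.4 ± 0.0657. In the microglia cultures the order was another one. Serpina3n led at 48.2 ± 1.30 CPM per kb (n = 4), followed by Gfap at 35.1 ± 2.64, and Gja1 was last at 0.796 ± 0.131. In the co-cultures Slc1a3 led at 115 ± 2.85 CPM per kb (n = 8), ahead of Aldoc at 93.0 ± 4.62, and S100b was last at 2.86 ± 0.261. Gfap stood near the top in all 3 orders, with 46.4 ± 1.06 CPM per kb in the co-cultures.

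**Figure D1:**
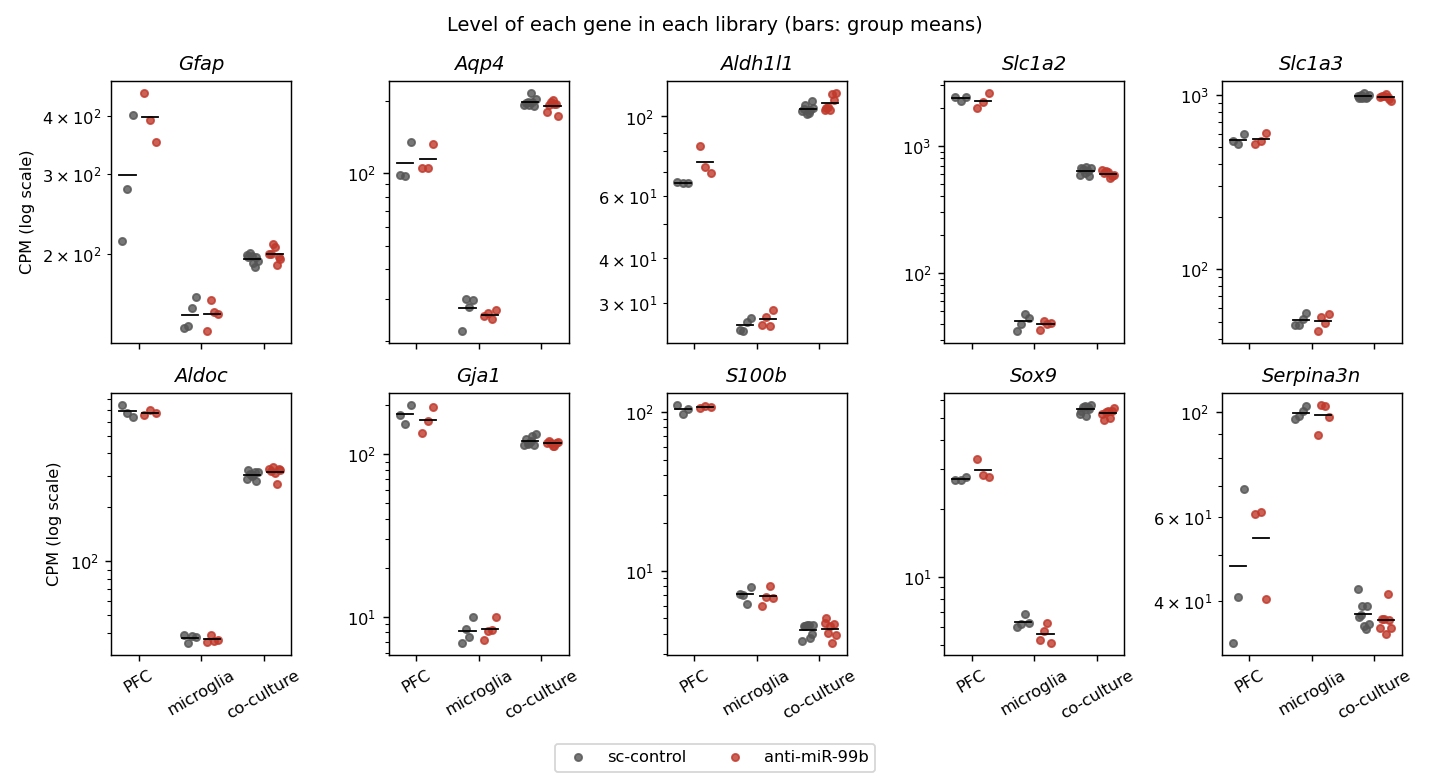
CPM of the 10 genes (vertical axis, log scale, 1 panel per gene) in each library of the PFC, microglia and co-culture experiments, with sc-control in grey, anti-miR-99b in red and horizontal bars at group means. Differences between kinds of sample exceed those between treatments, as for Slc1a2 with sc-control means of 2375, 41.6 and 637 CPM.

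In the sc-control microglia cultures, 9 of the 10 genes were lower than in the sc-control PFC and 1 was higher, by edgeR's quasi-likelihood test over the 15 sc-control libraries (adjusted p under 0.05 and log2 fold change beyond 1). Such calls were common between these samples: 37% of the 18274 genes tested were called lower and 26.4% higher. The glutamate transporter Slc1a2 was the most reduced, at 2253, 2427 and 2444 CPM in the 3 mice and 34.98 to 47.6 CPM in the 4 cultures, which is 1.74% of the PFC level (log2FC -5.85 ± 0.08 SE). The gap junction gene Gja1 stood at 4.65% of the PFC level, the glycolytic enzyme Aldoc at 5.41%, S100b at 6.75% and the second transporter Slc1a3 at 9.09%. Sox9, which specifies astrocytes during development, kept 23.2% (6.34 ± 0.351 against 26.95 ± 0.532 CPM), Aqp4 24.6% and the folate enzyme Aldh1l1 39.4%. The count behind the lowest of these is not small, since the rarest, Sox9 and Gja1, still gave at least 118 and 134 counts per sc-control library.

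Gfap, the intermediate filament gene of astrocytes, stood apart from the transporters with a residual level of 48.9% of the PFC. It measured 138, 139, 153 and 161 CPM in the sc-control microglia cultures and 214, 278 and 403 in the PFC, without overlap. The PFC value leaned on replicate 4, which had the highest Gfap of its group: without that mouse the log2FC of -1.03 became -0.75, and without microglia replicate 2 or 3 it lay just inside the limit of 1. Serpina3n was the gene that went the other way. Its 96.8, 98.0, 100 and 103 CPM in the microglia cultures lay above the 32.6, 40.7 and 68.9 of the 3 mice (log2FC 1.05 ± 0.13, adjusted p = 6.7e-08 by edgeR). That call missed the limit of 1 without PFC sc-control replicate 2 or 3, at 0.82 and 0.94, with anti-miR-99b libraries in place of the sc-control ones (0.84), and with library size as the only scaling (0.85), and remained a higher level in each.

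Co-cultures held the same 10 genes close to, above or far below the PFC, depending on the gene. Called lower were 3 of 10, against 20.5% of all genes, and called higher 0 of 10, against 14.9%. S100b showed the widest gap, at 3.60 to 4.56 CPM in the 8 sc-control co-cultures against 96.8 to 110.0 in the PFC (log2FC -4.64 ± 0.06). Slc1a2 reached 26.3% and Aldoc 43.6% of the PFC level. Aqp4 at 176%, Slc1a3 at 174%, Aldh1l1 at 159% and Sox9 at 199.6% were above the PFC in every library, with adjusted p-values of 2.58e-10 or less by edgeR, but within the 2-fold limit. Sox9 lay at that limit, with a log2FC of 0.997 ± 0.042. It passed the limit at 1.01 without PFC sc-control replicate 4 and at 1.02 with no filter on low counts. Gfap (64.4%) and Gja1 (67.4%) were below the PFC in every library, also within the limit. With anti-miR-99b libraries in place of the sc-control ones, Gfap passed it, at -1.01. Serpina3n at 34.8 to 42.4 CPM overlapped the mice, and its log2FC of -0.36 turned to 0.02 without PFC sc-control replicate 4.

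Between the cultures, 7 genes were called lower in microglia than in co-cultures (35.2% of all genes were) and 1 higher (24.3%). Slc1a3, the transporter typical of young astrocytes and radial glia, was 19.2-fold lower in microglia cultures, Slc1a2 15.2-fold, Gja1 14.5-fold, Sox9 8.59-fold, Aldoc 8.05-fold, Aqp4 7.17-fold and Aldh1l1 4.02-fold. Gfap was 1.32-fold lower (147.8 ± 11.2 against 196 ± 4.46 CPM), within the limit. Serpina3n was 2.66-fold higher. S100b was 1.69-fold higher in microglia cultures (7.07 ± 0.709 against 4.24 ± 0.387 CPM, n = 4 and 8), also within the limit. These fits give levels relative to TMM-adjusted library sizes, not absolute amounts. The median gene itself differed by -0.15 between microglia and PFC (log2), or by -0.35 with library size as the only scaling. In bulk RNA, fewer astrocytes and less of a message per astrocyte cannot be told apart, nor can the same message from other cells of a culture. Strain also differs between the PFC and the cultures, and age and lanes differ between the 3 kinds of sample. None of these can be told apart from the kind of sample.

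A wider list of 25 other astrocyte identity genes set these residual levels in context. All 25 were called lower in microglia cultures than in the PFC, with a median log2FC of -4.11 beside -2.78 for the 10 genes and -0.15 for all genes. Connexin 30 (Gjb6), the partner of connexin 43 in mature astrocytes, stood at 53.5 CPM in the PFC, 0.0281 in microglia cultures and 0.122 in co-cultures. The glycine and serine transporter gene Slc7a10 stood at 24.3, 0.0421 and 6.34 CPM, and the tight junction gene Cldn10 at 23.9, 0.0760 and 18.3. The potassium channel gene Kcnj10 and glutamine synthetase (Glul) kept more, with 97.9 of 206 CPM and 438 of 999.6 CPM in the microglia cultures. In co-cultures against PFC, 14 of the 25 were called lower and 1 higher, the GABA transporter gene Slc6a11 at 318 against 124.5 CPM. The receptor gene Gpr37l1, at 167 CPM in the PFC and 1.25 in co-cultures, and Gjb6 lay far from the others. These named genes were chosen after their values were seen. Of 12 genes for membrane channels and endfoot anchors, 10 were lower and 1 higher in microglia cultures than in the PFC (median -3.02), and 5 lower and 1 higher in co-cultures (median -0.57).

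**Figure D2:**
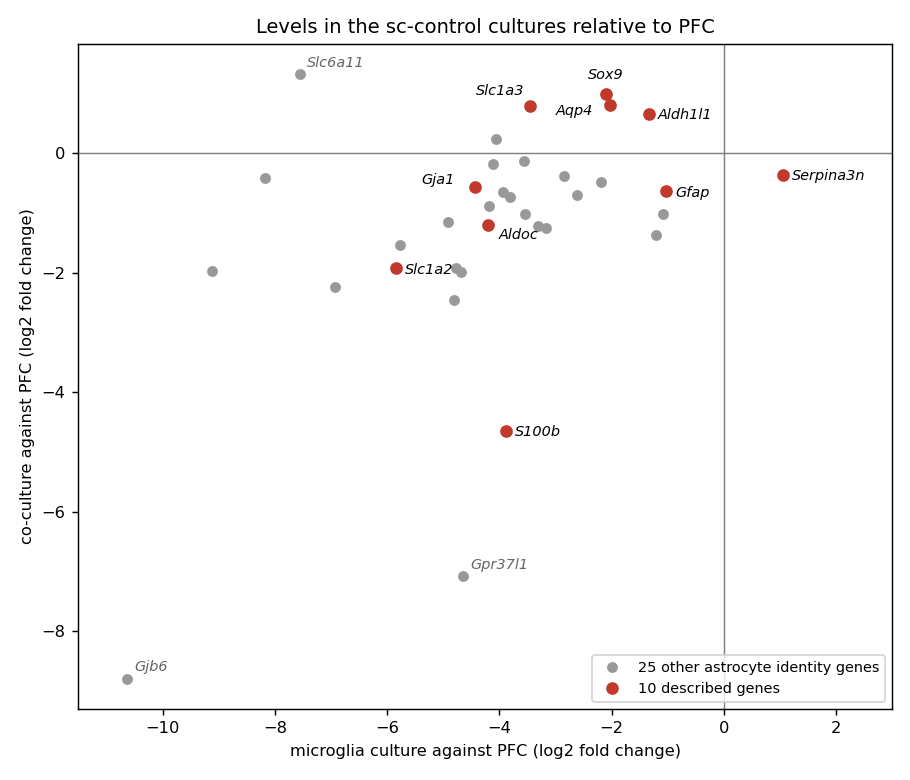
log2 fold change of each gene in sc-control microglia cultures against PFC (horizontal axis) and in sc-control co-cultures against PFC (vertical axis), for the 10 described genes in red and 25 other astrocyte identity genes in grey. Serpina3n is the one red point right of 0 (1.05), S100b the lowest red point (-4.64), and Aqp4, Slc1a3, Aldh1l1 and Sox9 lie above 0 on the vertical axis.

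Genes of reactive astrocytes were counted in the same way, beside 26.4% of all genes called higher and 37% lower in microglia cultures than in the PFC, and 14.9% and 20.5% in co-cultures. Whether these lists differ from the identity genes or from all genes was not tested. Of 13 pan-reactive genes, 6 were called higher and 4 lower in microglia cultures than in the PFC, and 7 higher and 2 lower in co-cultures. Of 12 genes of the neuroinflammatory type, 5 were higher and 3 lower in microglia, and 1 higher and 4 lower in co-cultures. Of 11 tested genes of the ischaemic type, the counts were 4 and 3 in microglia and 3 and 5 in co-cultures. Several of these genes are also expressed by microglia, such as Cd44, Vim, H2-D1, Cd14 and C3. For 20 progenitor and regulator genes, 9 were higher and 9 lower in microglia cultures, and 6 higher and 3 lower in co-cultures. Of 10 glutamate-handling genes, 0 were higher and 7 lower in microglia, and 1 higher and 3 lower in co-cultures.

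Serpina3n belongs to a cluster of closely related genes, between which short reads can be split. The other 8 members measured together summed to 0.267 to 0.769 CPM in the PFC and 10.6 to 19.4 CPM in the cultures, against 32.6 to 103 CPM for Serpina3n over all libraries, with Serpina3k at 0 in each. In the PFC 0 of the 8 passed the filter on low counts. In the cultures 6 of 8 passed it, with 0 called after anti-miR-99b in either and medians of 0.03 in microglia, where Serpina3m (0.16 ± 0.12) and Serpina3h (0.11 ± 0.11) had the smallest p-values, and -0.06 in co-cultures, where Serpina3f (0.15 ± 0.12) and Serpina3g (-0.10 ± 0.12) did. Exons of Aldh1l1 overlap Gm45901 and Gm15756, and an exon of Slc1a2 overlaps Gm13872 on the other strand. Gm45901 lies on the same strand as Aldh1l1, where strand could not separate reads of shared bases. For the pairs on opposite strands such reads cannot be told apart either, since the library kit does not mark strand.

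In the PFC, anti-miR-99b left all 10 genes without a call: 0 of 10 passed an adjusted p under 0.1 with a log2FC beyond 0.2, where 0.0864% of 17364 genes did by edgeR's quasi-likelihood test. DESeq2 also called 0 of 10. At an unadjusted p under 0.05 it was 1 of 10, beside 7.64% of all genes. The median log2FC of the 10 was 0.05, beside 0.00 for all genes.

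Gfap had the largest difference of the 10. Its levels were 214, 278 and 403 CPM in sc-control replicates 2, 3 and 4 and 450, 393 and 352 in anti-miR-99b replicates 1, 2 and 3. The groups overlapped, with sc-control replicate 4 between the treated mice. The log2FC was 0.42 ± 0.19 (SE, 95% interval -0.01 to 0.85), with an adjusted p of 0.66 by edgeR. An exact permutation test of the 3 against 3 mice, two-sided, gave p = 0.3, where 0.1 is the smallest it allows. Serpina3n, the other reactive gene, stood at 32.6, 40.7 and 68.9 CPM in sc-control replicates 2, 3 and 4 and at 61.0, 61.5 and 40.3 in anti-miR-99b replicates 1, 2 and 3. Here each group had 1 mouse on the far side, and the log2FC was 0.19 ± 0.25 (-0.37 to 0.75). Across the 6 mice, centred by group, Gfap and Serpina3n went together (Pearson's r = 0.94, as a description, over mice that share 2 lanes). This pair, and that of Aldh1l1 and Sox9 given below, were picked from the high end of 45 pairs. Over all 45 the median r was 0.04, with 23 positive and a range from -0.89 to 0.98.

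The result for Gfap turned on 1 mouse. Without sc-control replicate 4 it was called, with a log2FC of 0.70 and an adjusted p of 0.0526 by edgeR, and 1.14% of 17630 genes were called instead of 0.0864%. Serpina3n had a log2FC of 0.57 there and was not called (adjusted p = 0.302 by edgeR). In the same mouse, summed microglia markers stood at 968 CPM, against 716 and 698 in the other sc-control mice and 987, 1034 and 947 in the treated ones. Summed neuroinflammatory genes stood at 253 CPM, against 184 and 190.0, and 292, 283 and 259 in the treated mice, and pan-reactive genes at 256, against 180 and 189, and 289, 262 and 233. This library was the highest of its group in all 3 sums, and their part in the Gfap result was not tested. It was sequenced in lane 7 together with anti-miR-99b replicate 3, and the other 4 mice in lane 6. Within lane 6, Gfap averaged 421 CPM in 2 treated mice and 246 in 2 controls, and within lane 7 it was 352 against 403 in 1 each. With lane as a block its log2FC was 0.46 (adjusted p = 0.339 by edgeR). Within lane 6 Serpina3n averaged 61.2 against 36.7 CPM, and in lane 7 it was 40.3 against 68.9. Gfap was called, too, when no filter on low counts was applied (0.40, adjusted p = 0.00657 by edgeR).

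**Figure D3:**
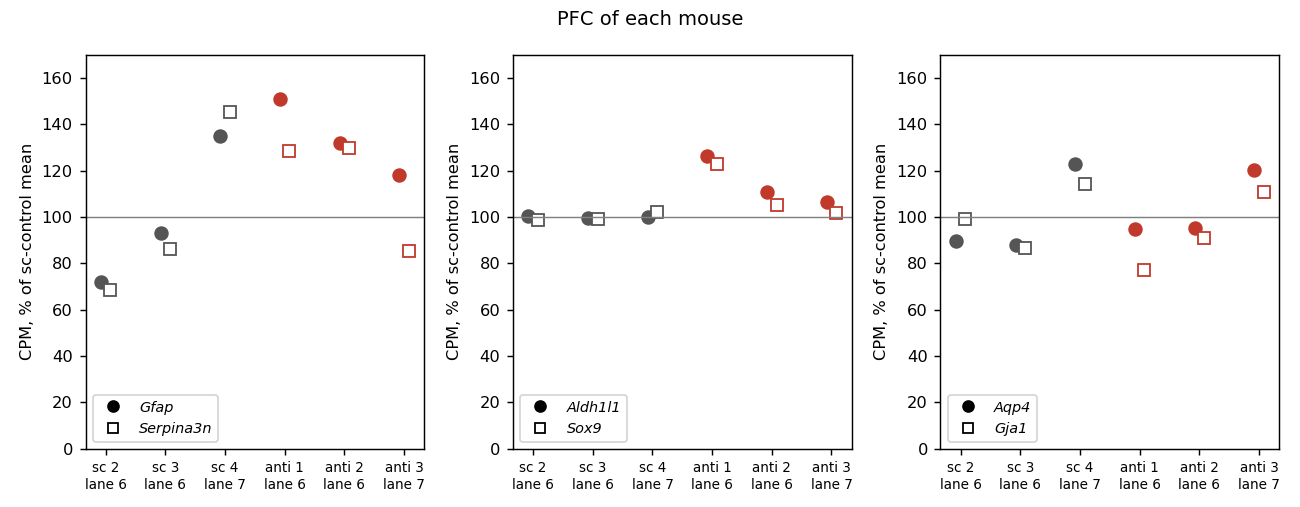
Level of 6 genes in each PFC library as a percentage of the sc-control mean (vertical axis, from 0), with sc-control mice in grey, anti-miR-99b mice in red, replicate numbers and sequencing lanes below, and circles or open squares for the 2 genes of a panel. Gfap and Serpina3n are high in sc-control replicate 4 (403 and 68.9 CPM), and Aqp4 and Gja1 are high in both mice of lane 7.

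Aldh1l1, a marker of astrocytes at large, was the single gene with groups apart. Sc-control mice had 65.0, 65.1 and 65.5 CPM and anti-miR-99b mice 69.5, 72.2 and 82.4, so that 1 of 10 genes was higher without overlap and 0 lower, where 13.4% of all genes did not overlap. The log2FC was 0.20 ± 0.08 (0.03 to 0.37) with an adjusted p of 0.648 by edgeR, and it rested on the mouse at 82.4 CPM: without that mouse it was 0.12. Sox9 went with it over the 6 mice (r = 0.97, centred by group) and stood at 26.6, 26.7 and 27.6 CPM in controls and 33.1, 28.3 and 27.5 in treated mice, with a log2FC of 0.13 ± 0.09, which was 0.05 without the mouse at 33.1 CPM (anti-miR-99b replicate 1). Aqp4 (log2FC 0.05 ± 0.14), Gja1 (-0.10 ± 0.13) and Slc1a3 (0.01 ± 0.08) were each highest, within their group, in the mouse of lane 7. For Aqp4 these were 136 CPM in the control and 133 in the treated mouse, where the other 4 lay between 97.1 and 105. Slc1a2 (-0.06 ± 0.10), Aldoc (-0.02 ± 0.08) and S100b (0.05 ± 0.07) differed by less than their standard errors.

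The wider lists gave 0 calls in the PFC by edgeR, beside 0.0864% of all genes, and the genes named from them are given as values. Their medians were 0.04 for 25 identity genes, 0.03 for 20 progenitor and regulator genes, 0.22 for 13 pan-reactive genes, 0.32 for 12 neuroinflammatory genes, 0.07 for 11 ischaemic genes, -0.02 for 10 glutamate-handling genes, 0.01 for 12 channel and anchor genes and 0.19 for 16 other paralogs of the members. Among the reactive genes, 12 of 13 pan-reactive and 10 of 12 neuroinflammatory ones were above 0, beside 8791 of all 17364 genes. Genes of a list can move together over the same mice, and whether the lists differ from all genes was not tested. The smallest p-values belonged to the chemokine gene Cxcl10 (4.74 ± 2.32 against 1.80 ± 0.619 CPM, log2FC 1.39 ± 0.34), Aspg (0.53 ± 0.13), the major histocompatibility gene H2-T23 (0.32 ± 0.08) and the interferon-induced Gbp2 (0.60 ± 0.14), with Clcf1 (0.57 ± 0.21) and Cd14 (0.19 ± 0.18) in the ischaemic list. In the other lists they belonged to Itih3 (0.17 ± 0.08) and Kcnj10 (0.14 ± 0.07), Id3 (0.26 ± 0.07) and Fabp7 (0.34 ± 0.09), Slc38a2 (-0.25 ± 0.10) and Slc1a1 (-0.22 ± 0.09), Kcnj10 again and Agrn (0.12 ± 0.06), and Sox10 (0.25 ± 0.07) and Aldh1l2 (0.49 ± 0.15). None of these was called. Markers of other cells had medians of 0.36 for 15 microglia genes, led by C1qa (0.51 ± 0.14) and Aif1 (0.46 ± 0.12), -0.04 for neurons, 0.02 for the oligodendrocyte lineage, 0.10 for vessels and 0.09 for fibroblasts and meninges. Their smallest p-values belonged to Gad1 (-0.13 ± 0.07) and Gad2 (-0.15 ± 0.10), Sox10 and Mog (-0.25 ± 0.11), Pecam1 (0.18 ± 0.11) and Tek (0.14 ± 0.09), and Col1a1 (0.31 ± 0.08) and Col3a1 (0.39 ± 0.14). Without sc-control replicate 4, an alternative chosen after seeing the data, 1.14% of 17630 genes were called in either direction. Called higher were 2 of 13 pan-reactive genes (Osmr and Vim), 1 of 20 progenitor and regulator genes (Vim again) and 4 of 12 neuroinflammatory genes (Gbp2, Ggta1, H2-D1 and Psmb8). Of 15 microglia genes 7 were called higher, and of 25 identity genes 0.

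In the microglia cultures most of the 10 genes stood below their PFC level. After anti-miR-99b, 0 of 10 passed an adjusted p under 0.1 with a log2FC beyond 0.1, beside 0.488% of 14953 genes by edgeR. DESeq2 called 0. At an unadjusted p under 0.05 there was 1 of 10, beside 6.45% of all genes. The groups overlapped for all 10 genes, beside 4.23% of all genes that did not overlap. The log2FC was below 0 for 9 of the 10, beside 7233 of all 14953 genes. The median was -0.04, beside 0.00 for all genes. Of the 9, Gja1 (0.00) and Gfap (-0.01) lay at or close to 0, and the 10 genes varied together, so the count is a description. Sox9 had the smallest p. It stood at 6.04, 6.21, 6.84 and 6.24 CPM in sc-control replicates 2, 3, 4 and 6 and at 5.26, 5.75, 6.24 and 5.10 in anti-miR-99b replicates 1, 3, 4 and 5. Of the 4 treated cultures, 3 lay below every control. The log2FC was -0.19 ± 0.09 (-0.37 to -0.01), with an adjusted p of 0.746 by edgeR, and within the lanes it was -0.15 in lane 5 and -0.21 in lane 6. Aqp4 stood at 22.02, 30.03, 27.8 and 29.6 CPM in controls and 25.3, 26.1, 24.8 and 26.96 in treated cultures (log2FC -0.11 ± 0.06). Sc-control replicate 2 had the lowest value of all 8, and without sc-control replicate 2, Aqp4 was called lower (-0.18, adjusted p = 0.0442 by edgeR), and 409 genes were called in place of 73.

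The other 8 genes lay between -0.10 and 0.03 in the microglia cultures, with narrow intervals where counts were high. Gfap had a log2FC of -0.01 ± 0.04, with an interval from -0.10 to 0.08, and Serpina3n -0.03 ± 0.04, from -0.11 to 0.04. The transporters had -0.10 ± 0.06 (Slc1a2) and -0.04 ± 0.06 (Slc1a3). The rarest genes gave wider intervals, as for Gja1 at 0.00 ± 0.10 (-0.21 to 0.21) and S100b at -0.05 ± 0.09 (-0.24 to 0.15). Aldoc had -0.04 ± 0.05 and Aldh1l1 0.03 ± 0.05. Over the 8 cultures, centred by group, the 10 genes varied together, with a median r of 0.45 over 45 pairs, of which 40 were positive. These points share 2 lanes and depths that differ, and the correlations are a description.

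Of the reactive lists, 2 genes were called higher in anti-miR-99b microglia cultures, beside 0.488% of 14953 genes called in either direction. Both are also expressed by microglia: Cxcl10 (10.6 ± 0.958 against 8.00 ± 0.920 CPM, log2FC 0.38 ± 0.08) and H2-T23 (22.4 ± 1.95 against 17.8 ± 0.333 CPM, 0.32 ± 0.06). Their adjusted p-values were 0.0421 and 0.0238 by edgeR. Each call was lost without any 1 of sc-control replicates 4 and 6 and anti-miR-99b replicates 1, 4 and 5, with adjusted p-values of 0.11 to 0.311 by edgeR. List medians were 0.00 for identity, 0.01 for progenitor and regulator, 0.03 for pan-reactive, 0.09 for neuroinflammatory, 0.04 for ischaemic, -0.01 for glutamate-handling, 0.01 for channel and anchor genes and 0.02 for other paralogs. The smallest p-values in the lists without a call belonged to Hepacam (-0.24 ± 0.10) and Ttyh1 (-0.12 ± 0.06) for identity, Tnc (0.16 ± 0.06) and Stat3 (0.07 ± 0.03) for regulators, Sphk1 (0.29 ± 0.19) and Cd14 (0.04 ± 0.04), Slc38a2 (-0.04 ± 0.03), Atp1b2 (0.06 ± 0.05) and Dag1 (0.04 ± 0.03), and Aldoa (0.06 ± 0.03) and Sox10 (0.17 ± 0.10). Medians for the markers of other cell types were 0.03 for microglia, -0.04 for neurons, -0.01 for the oligodendrocyte lineage, 0.07 for vessels and 0.09 for fibroblasts and meninges, with Cd68 (0.05 ± 0.03), C1qc (0.06 ± 0.03), Syt1 (-0.28 ± 0.10), Syn1 (0.21 ± 0.08), Ly6c1 (0.43 ± 0.32), Cdh5 (0.13 ± 0.15), Col1a1 (0.35 ± 0.10) and Col1a2 (0.41 ± 0.15) at the smallest p-values of their lists, and none of these was called.

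**Figure D4:**
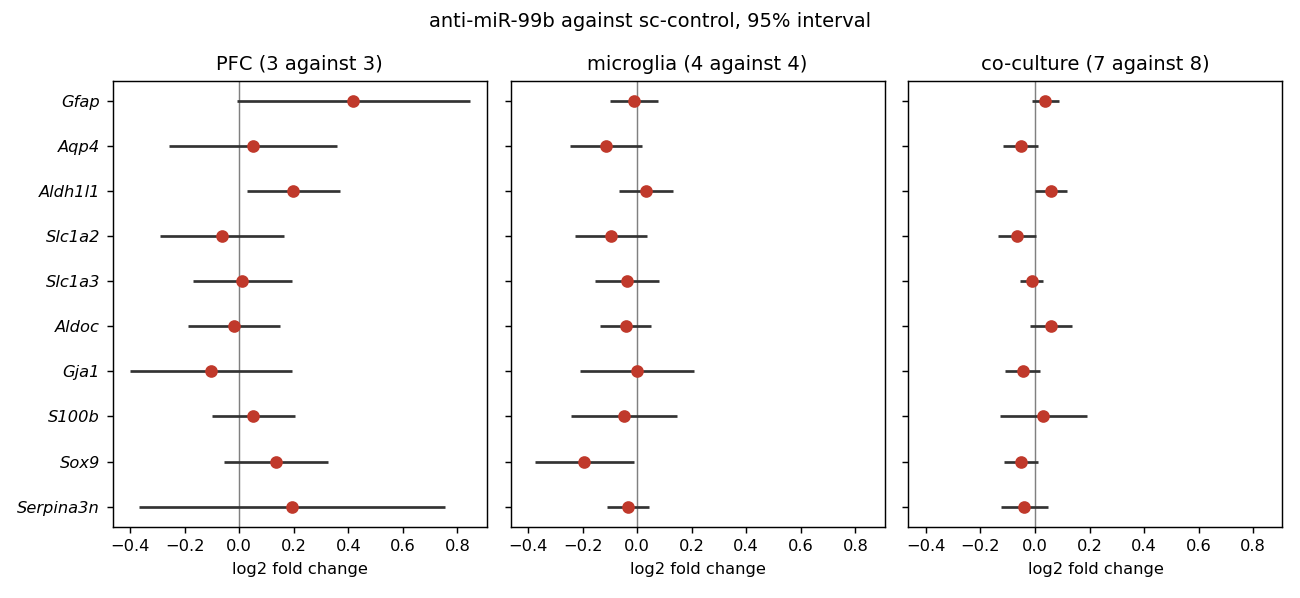
log2 fold change of anti-miR-99b against sc-control (horizontal axis) for the 10 genes in the 3 experiments, as the edgeR estimate (points) with its 95% interval (lines), with the number of libraries in each panel title. The PFC intervals of Gfap (-0.01 to 0.85) and Serpina3n (-0.37 to 0.75) are the widest of the 30, and co-culture intervals are narrower than both others except for S100b (-0.13 to 0.19), where the PFC interval is narrower, and Serpina3n (-0.13 to 0.05), where the microglia interval is.

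The co-cultures were compared over 7 against 8 libraries, and 0 of 10 genes passed (adjusted p under 0.05 and a log2FC beyond 0.1), beside 1.4% of 16193 genes by edgeR, with 0 by DESeq2. At an unadjusted p under 0.05 there was 1 of 10, beside 13.2% of all genes. All 10 overlapped between groups, beside 0.655% of all genes that did not. The median log2FC was -0.03, beside 0.00 for all genes, and the 10 estimates lay between -0.07 and 0.06. Aldh1l1 had the smallest p, with 102, 105 and 111 CPM as the lowest, median and highest of 8 controls and 104, 107 and 116 of 7 treated co-cultures (log2FC 0.06 ± 0.03, 0.00 to 0.12, adjusted p = 0.37 by edgeR). Its 3 highest values were in the treated libraries of lane 7, replicates 10, 11 and 12, at 116, 111 and 116 CPM, and with lane as a block the log2FC was 0.04. Slc1a2 had 582, 648 and 678 CPM in controls and 560, 613 and 644 in treated co-cultures (-0.07 ± 0.03, -0.14 to 0.00). Gfap had 0.04 ± 0.02 (-0.01 to 0.09) and Slc1a3 -0.01 ± 0.02 (-0.05 to 0.03). These intervals rest on the spread between libraries, which may be technical, so they do not bound an effect of the treatment.

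The remaining members of the co-cultures differed as little. Aqp4 (-0.05 ± 0.03), Gja1 (-0.05 ± 0.03), Sox9 (-0.05 ± 0.03) and Serpina3n (-0.04 ± 0.04) were below 0, and Aldoc (0.06 ± 0.04) and S100b (0.03 ± 0.08) above it, the last on 103 to 157 counts per library. Treated replicate 10 was apart from its group for 2 genes, with the lowest Aldoc of the 7 (268 CPM, the others 309 to 337) and the highest Serpina3n (41.3 CPM, the others 33.98 to 36.7). The 10 genes did not vary as one block over the 15 co-cultures: the median r over 45 pairs was 0.02, with 24 pairs positive. Slc1a2 and Aldoc went with the mean of the other members (r = 0.65 and 0.56), whereas Serpina3n and Aldh1l1 went against it (r = -0.76 and -0.59). The genes most like the mean of the 10 over these 15 libraries were the selenium carrier gene Selenop (r = 0.84), Prdm2 (0.81), Smpdl3a (0.81), the neutral amino acid transporter gene Slc1a4 (0.80) and Zfp365 (0.80). These values are a description of libraries that share lanes and depth.

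Microglia markers were higher in the same co-cultures, with 9 of 15 called higher and none lower, beside 1.4% of 16193 genes called in either direction. Their median was 0.31, and summed levels were 233 to 264 CPM against 185 to 235 in controls. Among those called were Cd68 (0.43 ± 0.05), C1qc (0.33 ± 0.05), Csf1r (0.34 ± 0.05), C1qa (0.34 ± 0.06) and Trem2 (0.70 ± 0.11). The part of the higher microglia markers in the astrocyte values was not tested. In the reactive lists, Cd14 (8.78 ± 0.889 against 6.21 ± 0.612 CPM, log2FC 0.50 ± 0.07), H2-D1 (0.14 ± 0.03) and Srgn (0.64 ± 0.15) were called higher, and all of these are also expressed by microglia. With lane as a block H2-D1 (0.13) and Srgn (0.58) were not called. Aldoa, the ubiquitous paralog of Aldoc, was called higher (682 ± 22.2 against 612 ± 41.04 CPM, log2FC 0.16 ± 0.03, adjusted p = 0.0107 by edgeR). Of 24 tested identity genes 0 were called and 17 were below 0, with a median of -0.05, beside 7842 of all 16193 genes below 0. Hepacam (-0.11 ± 0.03), Kcnj10 (-0.10 ± 0.03), Nfia (-0.12 ± 0.03), Lifr (-0.12 ± 0.04), Cd44 (0.18 ± 0.06), Cxcl10 (0.22 ± 0.12), Slc38a1 (-0.06 ± 0.02), Glud1 (-0.05 ± 0.02) and Dtna (-0.07 ± 0.03) had the smallest p-values in the lists without a call. Other medians were -0.01 for progenitor and regulator, 0.02 for pan-reactive, 0.05 for neuroinflammatory, 0.05 for ischaemic, -0.03 for glutamate-handling, -0.06 for channel and anchor genes and 0.03 for other paralogs. Among the other cell types the NMDA receptor gene Grin2b was called lower (-0.17 ± 0.03), with medians of -0.01 for neurons, -0.05 for the oligodendrocyte lineage, 0.03 for vessels and 0.01 for fibroblasts and meninges. Cspg4 (-0.11 ± 0.05), Mbp (0.11 ± 0.05), Flt1 (0.53 ± 0.23), Rgs5 (-0.07 ± 0.09), Fn1 (0.11 ± 0.07) and Pdgfra (-0.05 ± 0.04) were not called.

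Two-sided exact permutation tests of the 10 genes in the 3 experiments gave 0 of 30 p-values under 0.05, where the smallest possible were 0.1 for 3 against 3, 0.0286 for 4 against 4 and 0.000155 for 7 against 8 libraries. Whether the effect of anti-miR-99b on a gene differed between experiments was tested as a difference of log2 fold changes over all 29 libraries. Of the 30 such differences, 3 for each gene, 0 passed an adjusted p under 0.05 by edgeR and 0 by DESeq2, and 5 had an unadjusted p under 0.05. These 5 were Gfap and Sox9 in both comparisons with the PFC, and Aldh1l1 for co-culture against PFC (-0.14 ± 0.06). No share of all genes at that unadjusted limit is given. The share of all 18963 genes called was 0.469% for microglia against PFC, 0.791% for co-culture against PFC and 0.0844% for microglia against co-culture. The first 2 share the PFC libraries. Gfap had a difference of -0.41 ± 0.15 between microglia and PFC (adjusted p = 0.221 by edgeR) and of -0.38 ± 0.13 between co-culture and PFC (adjusted p = 0.145 by edgeR). Sox9 had -0.31 ± 0.10 and -0.19 ± 0.07, both with an adjusted p of 0.185 by edgeR. Without PFC sc-control replicate 4, Gfap passed in both, at -0.69 and -0.66, and so did Serpina3n, at -0.59 and -0.61. Without PFC anti-miR-99b replicate 3, Sox9 passed in both, at -0.35 and -0.23, and Gfap in 1, at -0.46. The share of all genes that passed in these refits is not given here. For treatment in the PFC, 1.14% of all genes were called without sc-control replicate 4, beside 0.0864% with it.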

How the data were processed

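PolyA RNA libraries (TruSeq RNA v2, which does not mark strand) from the PFC, primary microglia and microglia-neuron co-cultures were sequenced as single reads by the authors. Per the labels and methods, reads were aligned to mm10 with STAR 2.5.2b and raw counts per gene were made with featureCounts 1.5.1 before the 3 count tables were deposited; the strand setting and annotation release are not given in the sources used here. From these counts, genes were filtered with edgeR's filterByExpr (minimum count 10), scaled by TMM and tested with edgeR 4.0.16's quasi-likelihood test with Benjamini-Hochberg adjustment, within each experiment for anti-miR-99b against sc-control, over the sc-control libraries for levels (differences between kinds of sample), and over all 29 libraries for differences between experiments. Thresholds for the PFC and the co-cultures follow the study's text. It gives none for the microglia, where an adjusted p under 0.1 and a log2FC beyond 0.1 were chosen here. DESeq2 1.42.0, other scalings, filters, thresholds, a lane block, a replicate block and an RUVs factor were alternatives. Leaving out each library was run for the PFC and microglia libraries, not for the larger co-culture groups, and the PFC lists were refitted without sc-control replicate 4 alone. Single values were also tested by exact permutation at a pseudocount of 0.5. Scripts were tested on simulated data. The 10 genes and all lists were chosen with earlier results of these data known. The genes named were the 10, in each list those past the threshold (at most 5) or otherwise the 2 with the smallest p, and the 5 genes most like the members in the co-cultures. The results of 2 list genes in the microglia cultures are not reported here.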

Additional observations from a re-analysis of the deposited data

Results flagged for a closer look

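In the 7 anti-miR-99b co-cultures, replicate 10 lay apart from the others for 2 of the 10 genes by Dixon's gap criterion. Its Aldoc level was 268.2 CPM, against 308.6 to 337.1 CPM in the other libraries of the group. Its Serpina3n level was 41.31 CPM, against 33.98 to 36.68 CPM. In all, 40 combinations of gene and group were tested, and chance alone flags about 1 in 20.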

How the results depend on the processing

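Of the members' results, 0 of 10 genes were called in the PFC in all alternatives except no filter on low counts (1), the replicate block (2) and leaving out a library (0 to 1, the 1 being Gfap without sc-control replicate 4). In the microglia, leaving out a library gave 0 to 1, the 1 being Aqp4 without sc-control replicate 2. Differences of effect between experiments were called for 2 of 30 with no filter and for 0 to 4 on leaving out a PFC or microglia library. For these refits the share of all genes is not given. With a level limit of 2 on the log2 scale, 1 gene was called in co-cultures against PFC in place of 3. The counts of all genes called moved more. In the PFC the 15 became 93 with DESeq2, 25 with upper-quartile factors, 412 with no filter, 77 with a lane block and 284 with an RUVs factor, and 1 to 201 without 1 library. In the microglia the 73 became 38 with DESeq2, 167 with no filter and 160 with an RUVs factor, and 2 to 409 without 1 library (409 without sc-control replicate 2, 2 without sc-control replicate 4). In the co-cultures the 227 became 121 with a lane block, 520 with an RUVs factor and 437 with the other threshold. Aldoc in the PFC came to 0.02 with upper-quartile factors. Leaving out 1 library moved the log2FC in the PFC over 0.23 to 0.70 for Gfap, 0.05 to 0.19 for Sox9, -0.07 to 0.23 for Aqp4, -0.17 to 0.03 for Slc1a2, -0.05 to 0.07 for Slc1a3, -0.07 to 0.04 for Aldoc, -0.25 to 0.02 for Gja1 and -0.02 to 0.57 for Serpina3n. In the microglia it moved over -0.05 to 0.03 for Gfap, -0.09 to 0.02 for Slc1a3, -0.13 to 0.01 for S100b and -0.06 to 0.01 for Serpina3n, and the Serpina3n level in co-cultures against PFC over -0.58 to 0.02. The cause of these shifts was not tested.

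Same-numbered libraries are not said to share an origin, and their deviations correlated at -0.29 to 0.05 for 2 PFC pairs, -0.05 to -0.04 for 2 microglia pairs and -0.02 to 0.05 for 4 co-culture pairs, so the numbers were not taken as pairs. A replicate block, which keeps only libraries whose number occurs in both groups, gave 518 (PFC), 249 (microglia) and 93 (co-culture) genes called. In the PFC it leaves out both sc-control replicate 4 and anti-miR-99b replicate 1, so the fit rests on 2 pairs alone. Of these, anti-miR-99b replicate 3 was in lane 7 and sc-control replicate 3 in lane 6. The members called there were Gfap (0.62) and Serpina3n (0.47), and Slc1a2 came to 0.05 and Gja1 to 0.12. In the microglia the replicate block gave 0.06 for Gfap, 0.01 for Slc1a3, 0.01 for Aldoc, 0.15 for S100b and 0.03 for Serpina3n, and in the co-cultures -0.02 for S100b.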
